A study of Mus musculus with 6 samples.

Results

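The genes of the corticotropin-releasing hormone (CRH) and urocortin system were examined in ribosome-bound RNA of medial amygdala (MeA) *Kiss1* cells. The genes were taken by name from the table of log2 CPM (CPM, counts scaled to library size): the ligands *Crh*, *Ucn* and *Ucn3*, the binding protein *Crhbp*, and the receptors *Crhr1* and *Crhr2*. Of the 6 genes, 5 are listed among the 13886 genes of the table, and *Ucn* is not listed. All females were Kiss1Cre+/Rpl22HA+/+, so that Cre under control of *Kiss1* placed an HA tag on the ribosomal protein Rpl22, and RNA was pulled down with the tag from micro-punches of the MeA. Both groups had their ovaries removed (OVX) when 8 weeks old, were pre-treated with estradiol (E2) for 4 days to drive Cre, and were left 7 days without it. OVX females (3 libraries) then had no further hormone, and E2 females (3 libraries) carried an E2 capsule for 5 days. Each library came from punches of 4 brains pooled before the pulldown, so the spread between libraries is that between pools. No input library and no pulldown from Cre-negative females was analysed here.

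CRH is the hypothalamic peptide that starts the pituitary-adrenal response to stress, and neurons of the amygdala and cortex also use it as a local transmitter. CRH acts mainly through CRHR1 and binds CRHR2 less tightly, urocortin binds both receptors, and urocortin 3 is selective for CRHR2. Both receptors belong to the class B1 (secretin family) of G protein-coupled receptors and signal mostly through Gs and cAMP, while CRHBP is a secreted protein that holds CRH and urocortin away from the receptors. Urocortin 3 neurons and CRHR2 are known features of the MeA in rodents.

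The 5 listed genes spanned a wide range of levels, and *Crhr1* was the highest of them. Here the levels of different genes were compared per kilobase of the longest transcript. That length is 2460 nt for *Crhr1*, 1779 nt for *Crhbp*, 1478 nt for *Ucn3*, 1320 nt for *Crh* and 2924 nt for *Crhr2*. On this scale the mean over the 6 libraries was a log2 CPM per kilobase of 3.21 for *Crhr1*, 2.34 for *Crhbp*, 0.86 for *Ucn3*, 0.70 for *Crh* and 0.31 for *Crhr2*. Of the 13873 genes with a length, *Crhr1* ranked 6282 and *Crhbp* ranked 8495. *Ucn3* (rank 11213), *Crh* (rank 11461) and *Crhr2* (rank 11966) were among the lower ones. Between treatments 0 of the 5 genes were past an adjusted p of 0.05 (limma on log2 CPM, Benjamini-Hochberg over all genes), where 0.288% of all genes were. The unadjusted p was under 0.05 for 0 of the 5 and for 8.56% of all genes, the smallest among the 5 being 0.161 for *Ucn3*.

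**Figure D1:**
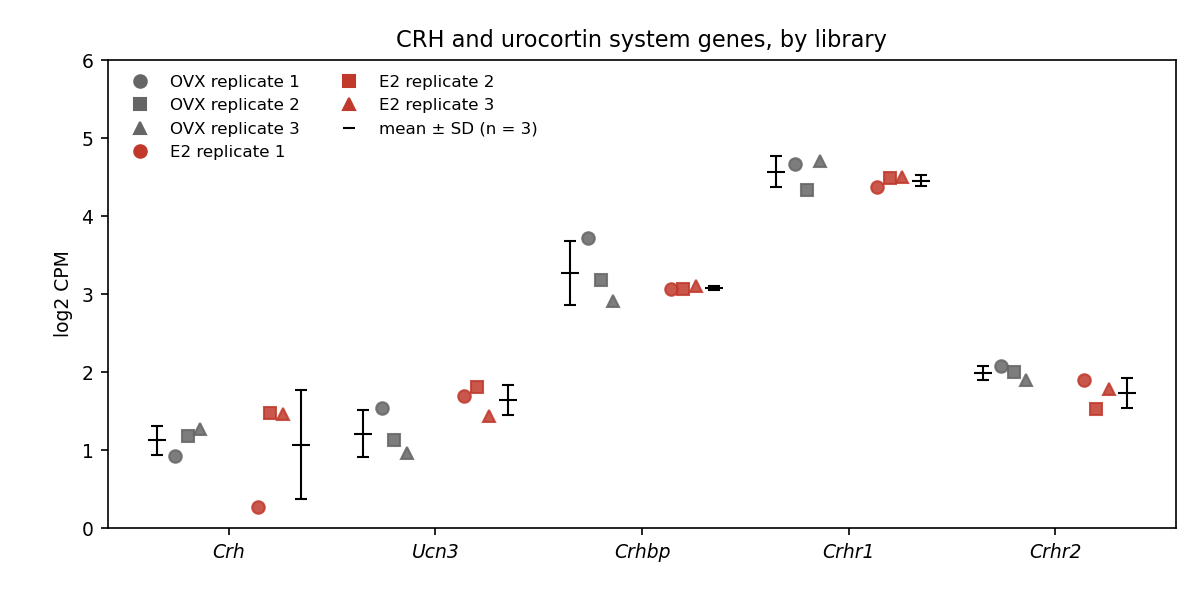
Log2 CPM of the 5 listed genes in the 6 libraries, with OVX in grey and E2 in red, a symbol for each replicate number, and black bars for the mean ± SD of 3 libraries. *Crhr1* lies between 4.34 and 4.70 in all libraries, *Crh* has 1 low E2 library at 0.27, and *Crhbp* has 1 high OVX library at 3.72.

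The depth allowed these levels to be read as numbers of reads. The scaled library size was between 28.1M and 34.2M, and counts rebuilt from the log2 CPM came out whole (within 0.01) for all 6 values of each of the 5 genes. They ran from 627 to 760 reads for *Crhr1*, from 211 to 371 for *Crhbp* and from 97 to 136 for *Crhr2*. *Ucn3* had 54 to 118 reads and *Crh* 36 to 94. For 6 of the 6 genes no other annotated gene overlaps the position in GENCODE mouse release 21 (GRCm38), so reads of the unstranded libraries have no overlapping gene to be shared with there.

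Of the other genes used to check the labels, *Kiss1* is listed under 2 gene identifiers whose summed level was 3.25 to 4.91 CPM in OVX and 17.2 to 23.0 CPM in E2 libraries. All 5 neuronal markers were listed at mean log2 CPM of 8.02 or above. Of the markers set for the MeA, *Esr1* had a mean log2 CPM of 4.81 and *Cyp19a1* one of 0.83, rank 13056 of 13886. The paper describes *Cyp19a1* as not expressed in MeA *Kiss1* cells. *Esr1*, the estrogen receptor alpha gene, was called lower with E2 (log2 CPM 5.16 ± 0.20 against 4.45 ± 0.14, SD, n = 3 each, adjusted p = 0.0189 in limma). The 5 markers each of astrocytes, oligodendrocytes and microglia were listed too, with summed levels of 509 to 790 CPM for astrocytes, 1266 to 1911 CPM for oligodendrocytes and 90.1 to 116 CPM for microglia. Genes of the anterior pituitary (*Gh*, *Prl* and *Pomc* were listed, *Cga* and *Pou1f1* were not) summed to between 2.02 and 1029 CPM over libraries, highest in OVX replicate 2.

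Among the ligands, *Crh* (ENSMUSG00000049796, chromosome 3 from 19693401 to 19695396, minus strand, 2 exons) encodes the CRH precursor. Its log2 CPM was 0.92, 1.18 and 1.27 in OVX replicates 1, 2 and 3, and 0.27, 1.48 and 1.47 in E2 replicates 1, 2 and 3. In E2, 2 libraries were above every OVX library and 1 was below all of them, so the groups overlapped. The OVX mean was 1.12 ± 0.18 and the E2 mean 1.07 ± 0.69 (log2 CPM, SD, n = 3 each). The difference was -0.05 (SE 0.38, 95% interval -0.86 to 0.76, adjusted p = 0.989 in limma), an interval that runs from 0.55-fold to 1.69-fold. E2 replicate 1 had 36 reads, or 1.21 CPM with an exact Poisson interval of 0.83 to 1.65 CPM that covers counting error only. The other E2 libraries had 94 reads (2.78 CPM, interval 2.24 to 3.38) and 89 reads (2.76 CPM, interval 2.21 to 3.38). The SD of *Crh* within E2 was larger than that of 90.7% of 922 genes of like level (within 0.5 in mean log2 CPM). Without E2 replicate 1 the difference was 0.35 (adjusted p = 0.964), and without OVX replicate 3 it was 0.02 (adjusted p = 0.994), so the direction rested on single libraries. Of 5 genes set as markers of the hypothalamus, where *Crh* is a classic neuroendocrine gene, 3 were listed (*Otp*, *Sim1* and *Trh*). The defining *Avp* and *Oxt* were not listed. The paper reports *Trh* as a ligand transcript of MeA *Kiss1* cells, so it does not mark the hypothalamus alone here. Whether *Otp* and *Sim1* mark the hypothalamus alone was not tested. The sum of the 3 listed genes was mostly *Trh* (mean log2 CPM 6.14, against 4.55 for *Otp* and 0.73 for *Sim1*). It was 83.2 to 113 CPM in OVX and 80.8 to 119 CPM in E2 libraries. Its highest value was in E2 replicate 1, where *Crh* was lowest, but a sum of mostly *Trh* does not measure hypothalamic tissue. Of the central amygdala markers, another site of *Crh* neurons, 6 of 6 were listed, with sums of 530 to 615 CPM in OVX and 502 to 580 CPM in E2 libraries. Most of these sums was *Dlk1* (mean log2 CPM 8.17) and *Wfs1* (7.62). *Ezr* (5.09), *Prkcd* (3.79), *Nts* (3.02) and *Tac2* (2.24) were lower. The part of hypothalamic or central amygdala neurons in the *Crh* level was not tested. In pooled RNA, fewer cells of a type and less RNA per cell cannot be told apart.

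*Ucn3* (ENSMUSG00000044988, chromosome 13 from 3940688 to 3945349, minus strand, 2 exons) encodes urocortin 3, the CRHR2-selective peptide, and had the largest difference between treatments among the listed genes. Its log2 CPM was 1.54, 1.12 and 0.96 in OVX replicates 1, 2 and 3, and 1.69, 1.80 and 1.43 in E2 replicates 1, 2 and 3. E2 replicates 1 and 2 were above every OVX library, while E2 replicate 3 was below OVX replicate 1. The OVX mean was 1.21 ± 0.30 and the E2 mean 1.64 ± 0.19 (log2 CPM, SD, n = 3 each), and mean CPM was 2.35 against 3.14. The difference of 0.43 (SE 0.29, 95% interval -0.19 to 1.06, adjusted p = 0.750 in limma) did not pass the threshold, and the interval reached from 0.87-fold to 2.08-fold. With each library left out in turn the difference stayed positive, between 0.31 and 0.60. The SD of *Ucn3* within OVX was smaller than the median over 963 genes of like level, which was 0.36.

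*Ucn* (ENSMUSG00000038676, chromosome 5 from 31138063 to 31138829, minus strand, 2 exons) encodes urocortin, which binds both receptors and the binding protein. It is not listed in the table, and neither is *Ucn2*, the remaining ligand gene of the family. Genes with low values were left out of the table by the authors, so the level of these ligands is not known from it, and the ligands with a measured level were *Crh* and *Ucn3*.

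**Figure D2:**
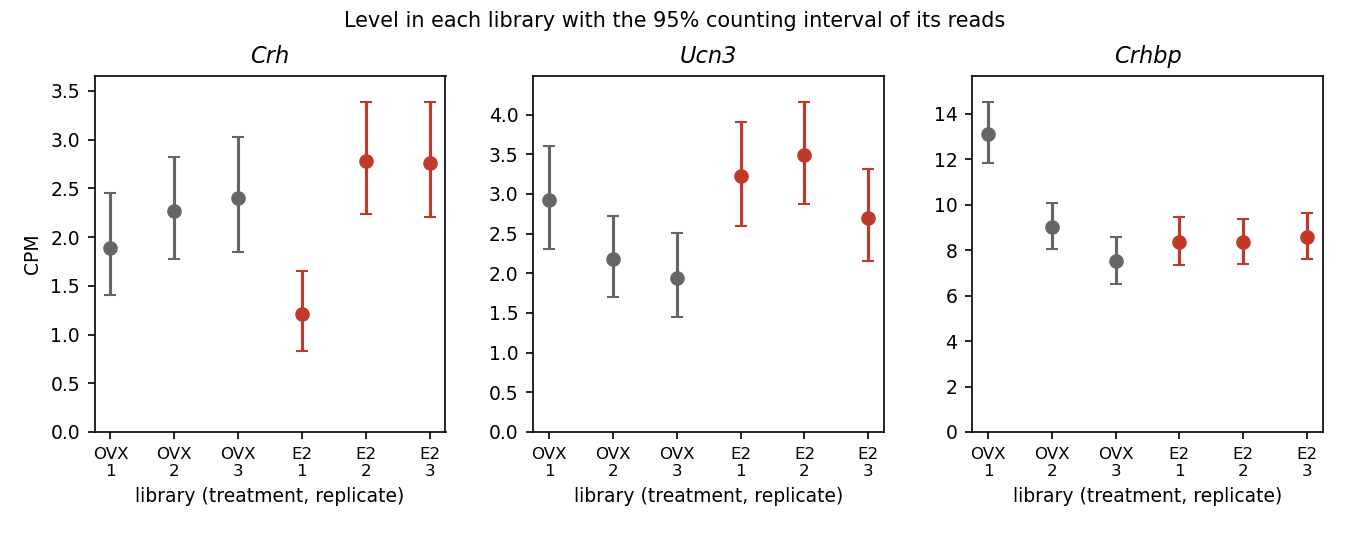
CPM of *Crh*, *Ucn3* and *Crhbp* in each library (OVX grey, E2 red), with bars for the exact 95% Poisson interval of the reads behind each value, which covers counting error only. *Crh* in E2 replicate 1 (1.21 CPM) and *Crhbp* in OVX replicate 1 (13.1 CPM) are the lowest and the highest value of their gene, and the bars do not include the spread between pools.

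*Crhbp* (ENSMUSG00000021680, chromosome 13 from 95431371 to 95444924, minus strand, 7 exons) encodes the secreted CRH binding protein. Its log2 CPM was 3.72, 3.17 and 2.91 in OVX replicates 1, 2 and 3, and 3.07, 3.07 and 3.10 in E2 replicates 1, 2 and 3. The E2 libraries were nearly equal and lay inside the range of the OVX libraries. The OVX mean was 3.27 ± 0.41 and the E2 mean 3.08 ± 0.02 (log2 CPM, SD, n = 3 each), and the difference was -0.19 (SE 0.19, 95% interval -0.61 to 0.23, adjusted p = 0.861 in limma). Among 1633 genes of like level, 92.4% had a smaller SD than *Crhbp* within OVX and 0.7% had a smaller SD within E2. The counting intervals of E2 replicates 1, 2 and 3 (7.36 to 9.46, 7.41 to 9.39 and 7.60 to 9.65 CPM) were wider than the spread between these libraries. Their near equality is therefore closer than counting error alone would resolve. OVX replicate 1 held 371 reads, or 13.1 CPM with a counting interval of 11.8 to 14.5 CPM, against 9.03 CPM in OVX replicate 2 and 7.53 CPM in OVX replicate 3. Without OVX replicate 1 the direction turned, to a difference of 0.034 (adjusted p = 0.989). *Crhbp* is known from cortical and limbic neurons, and the 5 forebrain excitatory markers (*Slc17a7*, *Neurod2*, *Neurod6*, *Tbr1* and *Emx1*, all listed) had their highest sum in OVX replicate 1 as well. This sum was 1128, 952 and 876 CPM in OVX replicates 1, 2 and 3, and 722, 663 and 866 CPM in E2 replicates 1, 2 and 3. Most of this sum was *Slc17a7*, and the mean log2 CPM of the 5 markers was also highest in OVX replicate 1 (6.13, against 5.43 to 5.94 in the other libraries). The sum of the 6 cortical interneuron markers, all listed, was mostly *Nos1* (mean log2 CPM 9.07), so their mean log2 CPM is given. It was 4.78, 4.72 and 4.62 in OVX replicates 1, 2 and 3, the order of *Crhbp* in this group, and 4.81, 4.70 and 4.61 in E2 replicates 1, 2 and 3. In E2 the order was not that of *Crhbp*, which was highest in replicate 3. The highest mean of these markers, in E2 replicate 1, went with a *Crhbp* of 3.07, against 3.72 in OVX replicate 1. The part of either cell type in the *Crhbp* level was not tested.

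*Crhbp* was set against its ligand in the same library, as log2 CPM not scaled by length. It was above *Crh* by 2.80, 1.99 and 1.65 in OVX replicates 1, 2 and 3. In E2 replicates 1, 2 and 3 it was above by 2.80, 1.59 and 1.64. It was higher in all 6 libraries, and the widest gap in each group came from a library that stood apart, OVX replicate 1 with high *Crhbp* and E2 replicate 1 with low *Crh*. Between treatments this gap differed by -0.14 (exact permutation of 3 against 3 libraries, two-sided p = 0.6, where the smallest p possible is 0.1). The difference ran from -0.53 to 0.19 with each library left out in turn and so had no stable direction.

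*Crhr1* (ENSMUSG00000018634, chromosome 11 from 104132855 to 104175523, plus strand, 13 exons) encodes the main receptor of CRH, which urocortin also binds. Its log2 CPM was 4.67, 4.34 and 4.70 in OVX replicates 1, 2 and 3, and 4.37, 4.48 and 4.50 in E2 replicates 1, 2 and 3. All 3 E2 libraries lay between the lowest and the highest OVX library. The OVX mean was 4.57 ± 0.20 and the E2 mean 4.45 ± 0.07 (log2 CPM, SD, n = 3 each), or 23.9 CPM against 21.9 CPM. The difference was -0.11 (SE 0.12, adjusted p = 0.860 in limma), and its 95% interval of -0.36 to 0.13 (0.78-fold to 1.10-fold) was the narrowest of the 5 genes. The difference was -0.23 when OVX replicate 2 was left out and -0.05 when OVX replicate 3 was, and between these with any other library left out.

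*Crhr2* (ENSMUSG00000003476, chromosome 6 from 55090049 to 55133016, minus strand, 12 merged exons over 9 transcripts) encodes a receptor for urocortins that CRH binds less tightly. Its log2 CPM was 2.08, 2.0 and 1.90 in OVX replicates 1, 2 and 3, and 1.89, 1.52 and 1.78 in E2 replicates 1, 2 and 3. Every E2 library was below every OVX library, but the nearest pair, OVX replicate 3 and E2 replicate 1, were only 0.0018 apart in log2 CPM, with 104 and 112 reads. *Crhr2* was the 1 gene of the 5 whose groups did not overlap, against 13.7% of all genes. The OVX mean was 1.99 ± 0.09 and the E2 mean 1.73 ± 0.19 (log2 CPM, SD, n = 3 each), and the difference of -0.26 (SE 0.24, 95% interval -0.77 to 0.26, adjusted p = 0.843 in limma) did not pass the threshold. It ran from -0.34 (without E2 replicate 1) to -0.15 (without E2 replicate 2) with each library left out in turn. Of the markers of the choroid plexus, an epithelium with *Crhr2* in rodents, 5 of 5 were listed. Its summed level, mostly *Ttr*, was 792, 1070 and 684 CPM in OVX replicates 1, 2 and 3, and 1009, 394 and 625 CPM in E2 replicates 1, 2 and 3, lowest in the library where *Crhr2* was also lowest. The mean log2 CPM of these markers was 4.16, 5.23 and 4.46 in OVX replicates 1, 2 and 3, and 4.74, 3.55 and 4.18 in E2 replicates 1, 2 and 3. *Crhr2* was highest in OVX replicate 1, where sum and mean were below those of OVX replicate 2 and E2 replicate 1. The part of the choroid plexus in the *Crhr2* level was not tested.

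The log2 ratio of the 2 receptors, not scaled by length, was 2.59, 2.34 and 2.80 in OVX replicates 1, 2 and 3. It was 2.48, 2.96 and 2.72 in E2 replicates 1, 2 and 3, in favour of *Crhr1* in all 6 libraries. The groups overlapped, and the ratio differed between treatments by 0.14 (exact permutation of 3 against 3 libraries, two-sided p = 0.5). With each library left out in turn this difference ran from 0.02 to 0.27.

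**Figure D3:**
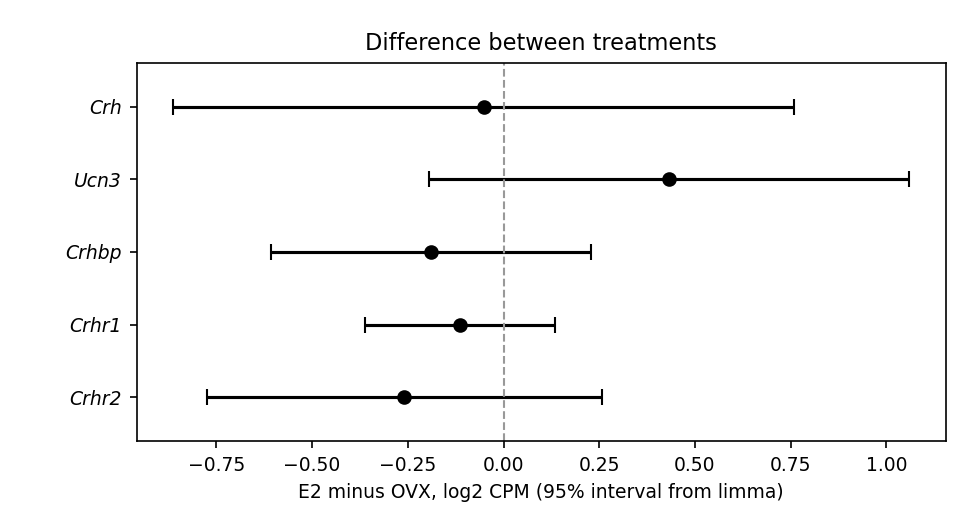
Difference between E2 and OVX libraries in log2 CPM for the 5 listed genes, with the 95% interval from limma and a dashed line at 0. All 5 intervals cross 0, and they are widest for *Crh* (-0.86 to 0.76) and narrowest for *Crhr1* (-0.36 to 0.13).

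The order of the 5 genes per kilobase was firm at its upper end. *Crhr1* was above *Crhbp* in 6 of 6 libraries (mean log2 difference 0.87 ± 0.28, SD, n = 6), and *Crhbp* was above *Ucn3* in 6 of 6 (1.48 ± 0.37, SD, n = 6). Among the 3 lowest genes, *Ucn3* was above *Crhr2* in 6 of 6 libraries (0.55 ± 0.45, SD, n = 6), by as little as 0.05 in 1 of them and with overlapping ranges, while the place of *Crh* between them was not settled. *Ucn3* was above *Crh* in 3 of 6 libraries and *Crh* above *Crhr2* in 4 of 6, with mean differences (0.17 and 0.38) smaller than their SD (0.63 and 0.57). With the merged exons as its length (5115 nt), *Crhr2* was below *Crh* in 6 of 6 libraries.

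The other class B1 receptors give the scale of both CRH receptors within their family. Of 13 other receptor genes of this class, 10 are listed and *Sctr*, *Gcgr* and *Ghrhr* are not. Per kilobase, *Crhr1* had place 2 of the 12 listed receptors, below the PACAP receptor gene *Adcyap1r1* (mean log2 CPM per kilobase 4.95). Its range over the libraries (3.04 to 3.40) did not meet that of *Adcyap1r1* (4.85 to 5.04), but overlapped that of the calcitonin receptor gene *Calcr* (1.47 to 3.34). *Crhr2* had place 6, with a range of -0.03 to 0.53 that overlapped those of *Glp1r* (-0.04 to 0.46), *Calcrl* (-0.26 to 0.40), *Pth2r* (up to 0.04) and *Gipr* (up to 0.09) below it, but not that of *Pth1r* (1.38 to 1.75) just above it. The place of *Crhr2* rests on its longest transcript (2924 nt) and was not taken with its merged exons (5115 nt). Without scaling by length, *Crhr2* (mean log2 CPM 1.86) was below *Glp1r* (2.75) and *Calcrl* (2.27). Between treatments, 0 of the 10 other receptors were past the threshold, where 0.288% of all genes were. Their median difference was -0.04, against a median of 0.0034 over all genes. *Calcr* and *Glp2r* had the smallest unadjusted p among them. *Calcr* was at 4.68 ± 0.50 in OVX and at 3.85 ± 0.42 in E2 libraries on the log2 CPM scale (SD, n = 3 each), groups that did not overlap (difference -0.83, SE 0.23, adjusted p = 0.256 in limma), and the GLP-2 receptor gene *Glp2r* differed by 0.79 (SE 0.46, adjusted p = 0.695).

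**Figure D4:**
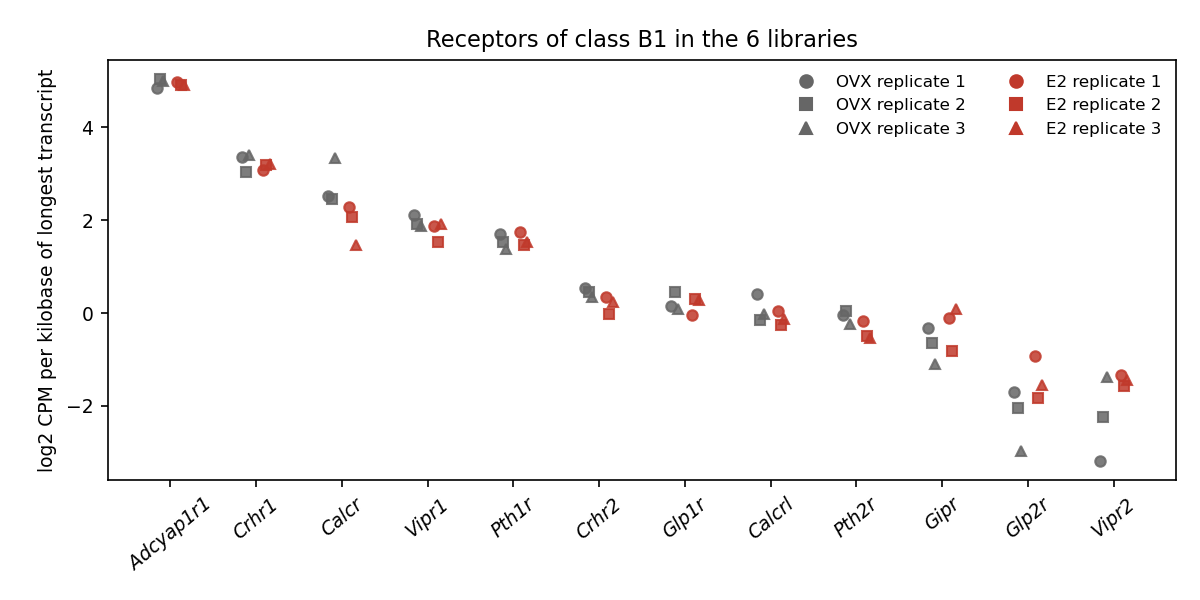
Log2 CPM per kilobase of the longest transcript for the 12 listed receptors of class B1 in the 6 libraries, ordered by their mean, with OVX in grey and E2 in red and a symbol for each replicate number. *Crhr1* is second at 3.21 below *Adcyap1r1* at 4.95, and *Crhr2* is sixth at 0.31, below *Pth1r* and overlapping the next 4 receptors in order.

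The genes on which CRH receptor signals depend did not pass the test either. Their levels are given here as log2 CPM, not scaled by length. In the Gs and cAMP pathway 23 of 23 genes were listed, with mean log2 CPM from 2.77 to 10.73, the top value being that of *Gnas*, the Gs alpha subunit. None was called by limma (0 higher and 0 lower with E2, where 0.23% of all genes were called higher and 0.0576% lower). The median difference was -0.01. Groups overlapped for all 23, where 13.7% of all genes did not overlap. The smallest unadjusted p in this list belonged to *Adcy1*, an adenylyl cyclase (difference -0.24, SE 0.11, adjusted p = 0.563), and *Crtc1*, a coactivator of CREB (difference -0.12, SE 0.06, adjusted p = 0.604). In the Gq and MAP kinase pathway 13 of 13 genes were listed and 0 were called by limma, with a median difference of -0.01 and groups not overlapping for 3 of the 13, where 13.7% of all genes did not overlap. *Prkca*, protein kinase C alpha, was at 7.49 ± 0.02 in OVX and 7.72 ± 0.04 in E2 libraries (log2 CPM, SD, n = 3 each), without overlap, a difference of 0.23 (SE 0.05, adjusted p = 0.125). *Plcb4*, a phospholipase C, had a difference of 0.27 (SE 0.09, adjusted p = 0.404), and *Prkce*, protein kinase C epsilon, had the highest mean log2 CPM of the list, 9.02.

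The 7 receptor kinases and arrestins, which uncouple G protein-coupled receptors after activation, were all listed. Of these, 0 were called, where 0.288% of all genes were, and the median difference was -0.03. *Arrb1*, beta-arrestin 1, had the highest mean log2 CPM, 8.18. *Grk4* (difference 0.47, SE 0.30, adjusted p = 0.737 in limma) and *Grk6* (difference -0.08, SE 0.07, adjusted p = 0.816) had the smallest unadjusted p of this list. The 10 genes that process and store propeptides, through which CRH and urocortin 3 mature, were all listed as well. In this list 0 of the 10 genes were called (0.288% of all genes), and their median difference was -0.01. Of these, the granin *Scg2* was at 10.33 ± 0.15 in OVX and 10.82 ± 0.22 in E2 libraries (log2 CPM, SD, n = 3 each), the highest of the list and with groups that did not overlap, and its difference of 0.49 (SE 0.10, adjusted p = 0.0608 in limma) was just outside the threshold. The paper, with limma and voom on the same libraries, reports *Scg2* as significantly higher with E2. The prohormone convertase gene *Pcsk1* differed by 0.21 (SE 0.07, adjusted p = 0.397).

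Of 10 genes of the pituitary-adrenal axis and corticosteroid receptors, 7 were listed and *Avp*, *Avpr1b* and *Mc2r* were not. None was called (0 of 7, against 0.288% of all genes), and the median difference was 0.03. The mineralocorticoid receptor gene *Nr3c2* had a difference of 0.10 (SE 0.11, adjusted p = 0.866 in limma) and the cochaperone gene *Fkbp5*, a known target of glucocorticoids, one of 0.12 (SE 0.09, adjusted p = 0.780), while *Fkbp4* had the highest mean log2 CPM, 7.24. The 7 genes set as regulators of *Crh* transcription were all listed, 0 were called (0.288% of all genes), and their median difference was 0.19. *Nr4a1*, an orphan nuclear receptor induced by activity, differed by -0.38 (SE 0.15, adjusted p = 0.482), and *Arnt2*, the partner of SIM1 and the highest of the list (mean log2 CPM 8.18), by -0.10 (SE 0.05, adjusted p = 0.611).

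Since E2 acts through receptors that bind DNA, the 300-base windows around the RefSeq starts of these genes (GRCm38.p6, 250 bases before to 50 after the start) were searched on both strands for an estrogen response element (ERE, GGTCANNNTGACC), its half-site (AGGTCA, which shares GGTCA with the full element) and a cAMP response element (CRE, TGACGTCA). Windows were at hand for 5 of the 6 genes, 1 each, and not for *Crh*. The full ERE was in 0 of the 5 windows and in 0.07% of all 32851 windows. The half-site was in 1 of the 5, that of *Crhbp*, and in 16.3% of all windows, and the CRE was in 1 of the 5, that of *Ucn*, and in 1.79% of all windows. The windows of *Crhr1*, *Crhr2* and *Ucn3* held none of these letters. The half-site starts 152 bases and the CRE 44 bases before the RefSeq start. For both genes this start is not that of the GENCODE positions given above, so the distances hold for RefSeq only. Both matches are shown 5′ to 3′ on the strand of the gene with the motif in capitals.
Crhbp, chr13:95444968-95444993, minus strand: ctatgcgttcAGGTCActaggtcctc
Ucn, chr5:31138922-31138949, minus strand: tgttcttcgcTGACGTCAgtcggagctg
*Crhbp*, the gene with a half-site, had a 95% interval of -0.61 to 0.23 for its difference between treatments, and *Ucn*, the gene with a CRE, has no measured level here. A match is a run of letters and not a measured binding site.

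The genes whose log2 CPM followed each listed gene most closely over the 6 libraries were taken as the highest r among 12908 other genes with a mean log2 CPM of at least 1, so that a high r is a result of the search and is given as a description over 6 points that share 2 treatments. For *Crhr1* they were *Nxt1* (Pearson r = 0.996) and *Sh3kbp1* (0.990), and for *Crhr2* they were *Tmem8b* (0.992) and *Plxnb2* (0.987). For *Crhbp* they were *Gpaa1* (0.992) and *Zfp354a* (0.989), both highest in OVX replicate 1 like *Crhbp*. *Ucn3* was followed by *Tm2d1* (0.985) and *2310030G06Rik* (0.981), and *Crh* by *AW554918* (0.987) and *Xk* (0.977), both lowest in E2 replicate 1 like *Crh*.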

How the data were processed

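RNA-seq was performed by the authors on RiboTag pulldowns of the MeA with unstranded polyA libraries. Per the labels and methods, reads were checked with FastQC 0.11.8, trimmed with Trimmomatic 0.38, aligned with STAR 2.6.0a and quantified with RSEM on GRCm38, and genes were limited to protein-coding ones over a minimum CPM. The values deposited by the authors are log2 CPM from limma voom with TMM scaling. A second deposited table, with the authors' fold changes and p-values, was not used.

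Here limma 3.58.1 (R 4.3.3) was run on the log2 CPM of 13886 genes in 6 libraries, with treatment as the only term, a mean-variance trend, two-sided p-values, Benjamini-Hochberg adjustment and a threshold of 0.05. Differences are E2 minus OVX. The pipeline was tested on simulated data. Counts were rebuilt on the assumption that the lowest log2 CPM in a library stands for no read plus the 0.5 added by voom, and intervals on them are exact Poisson at 95%. PCR reads without molecular identifiers are not independent molecules. Lengths and positions came from GENCODE mouse release 21 (GRCm38), another release than the authors' annotation, and promoter windows from RefSeq (GRCm38.p6). The genes and lists were chosen with earlier results of these data known. From each list the called genes, the 2 with the smallest unadjusted p and the 1 with the highest level were named. A few genes of these lists are not reported here and were left out of their counts and sums.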

Additional observations from a re-analysis of the deposited data

How the results depend on the processing

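Under each of 15 alternatives 0 of the 5 listed genes were called. These were no trend, voom weights, median centring, quantile normalization, a CPM above 1 in all 3 libraries of a group, log2 of CPM plus 1 or 0.1, robust empirical Bayes, a replicate block and each library left out. *Crhr1*, *Crhr2* and *Ucn3* kept their direction under all 15. The direction turned for *Crhbp* without OVX replicate 1 (0.034), and for *Crh* without OVX replicate 3 (0.02) and without E2 replicate 1 (0.35), with values from -0.37 to 0.034 and from -0.25 to 0.35 over single libraries left out. The gap between *Crhbp* and *Crh* ran from -0.53 to 0.19 and turned without OVX replicate 1 (0.19), E2 replicate 2 (0.07) or E2 replicate 3 (0.05). Over all genes, 40 were called, 0 without the trend (where limma gave 1017 genes an unadjusted p under 0.05, against 1188 with it), and 20 to 66 with 1 library left out. With a replicate block, 35 genes were called. Libraries with the same number did not deviate together (correlations of -0.02, -0.12 and -0.08), so they were not taken as pairs. At 36 to 136 reads a library, the SE for *Crh*, *Ucn3* and *Crhr2* was 0.24 to 0.38, against a median of 0.107 over all genes.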
